A study of Homo sapiens with 6 samples.

Results

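The GAPDH binding sites listed in galactose and in normal glucose medium were compared, 832 peaks of the 1316 in the series, 337 in galactose and 495 in normal glucose. Each combination of chromosome, start and end was taken as 1 peak, and peaks of the 2 lists were shared where they overlapped by at least 1 nt. Merged in this way, the 832 peaks formed 691 regions, against 951 for all lists of the series. The cells were MOLM-13, an established human line from acute myeloid leukaemia. They were kept for a day either in normal glucose medium or in medium with galactose in place of glucose at equal concentration, then crosslinked with ultraviolet light, and GAPDH was precipitated with a polyclonal antibody and the bound RNA digested with RNase T1 and sequenced (CLIP-seq). Each condition had 2 samples, which the authors joined into 1 list of positions. The comparison asks which RNAs and which places on them GAPDH contacted in either sugar.

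GAPDH is an enzyme of glycolysis that also binds RNA. Galactose enters glycolysis through the Leloir pathway, which is slow, so that cells on galactose lean more on mitochondrial respiration. A CLIP peak marks a place where RNA was crosslinked to the protein, and the kinds of RNA found here have well known roles. Transfer RNAs (tRNAs) bring amino acids to the ribosome, the 45S transcript is cut into ribosomal RNAs, small nuclear RNAs (snRNAs) build the spliceosome, and small nucleolar RNAs (snoRNAs) guide chemical changes of other RNAs. 7SL RNA is the core of the signal recognition particle, and 7SK RNA holds back the elongation factor P-TEFb.

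The lists carry no counts, scores or strands. Depth is therefore unknown, no spread between samples can be given, and no test of the conditions was possible. Values below describe the lists, intervals are exact 95% binomial intervals that cover counting error over peaks, and a gene missing from a list may still have been bound below the authors' threshold.

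To show what single sites looked like, 29 nt of hg38 sequence around the middle of 10 exonic peaks of 101 nt are given, 5′ to 3′ on the strand of the gene, with the base just before the middle in capitals. A peak of 101 nt is the narrowest in the lists, and its middle is read here as its site. The first 3 are shared sites, in MT2A (a metallothionein, which binds metal ions), FEZF2 (a transcription factor) and NFKBIA (the inhibitor of NF-kappa-B).
MT2A, chr16:56609015-56609043, plus: tcctgcaaatgcaAagagtgcaaatgcac
FEZF2, chr3:62372506-62372534, minus: gcggcggcggcggGggggccccagtgtgc
NFKBIA, galactose peak, chr14:35404630-35404658, minus: agctcgtccgcgcCatgttccaggcggcc
The next 3 were in the galactose list alone, in the 5′ untranslated regions (5′UTRs) of a subunit of ATP synthase and of a protein of the small ribosomal subunit, and in the coding sequence (CDS) of a histone H3 gene.
ATP5F1D, chr19:1241769-1241797, plus: tcctcctcgccctCcaggccgcccgcgcc
RPS12, chr6:132814595-132814623, plus: gcggaggcggaggCttggggtaagttgag
H3C4, chr6:26197017-26197045, minus: agcgtctagtccgTgagatcgcgcaggac
The last 4 were in the normal glucose list alone, in the CDS of 3 glycolytic enzymes and of the elongation factor EEF2, and each has a G in that place. These 10 are examples, and do not show how often a G occurs in each set, which is given further below. Among sites not shown, galactose only sites of H3C4 and HSPD1 had a G. In normal glucose only, the LDHA site and a site of ACTB had another base, while others had a G.
ALDOA, chr16:30067472-30067500, plus: gtccattggcaccGagaacaccgaggaga
EEF2, chr19:3978145-3978173, minus: gaaatctgacccgGtcgtctcgtaccgcg
GPI, chr19:34399220-34399248, plus: acttcttggcccaGacagaggccctgatg
PKM, chr15:72206736-72206764, minus: ggactatcctctgGaggctgtgcgcatgc

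Of the 691 regions, 138 (20%) were shared, 198 (28.7%) were in galactose only and 355 (51.4%) in normal glucose only. Seen from the lists, 139 of 337 galactose peaks were shared (41.2%, interval 35.9 to 46.7%) and 140 of 495 normal glucose peaks (28.3%). By genes, the lists named 718 in all. Of the 367 genes in galactose, 182 (49.6%) also had a normal glucose peak, and these were 34.1% of the 533 genes in normal glucose. Of the 182, 158 had a shared site and 24 were in both lists at different sites. Each list had many genes of its own, 185 of the 718 (25.8%) in galactose only and 351 (48.9%) in normal glucose only.

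Shared sites were matched closely. Of 141 overlapping pairs of peaks, 84 had the same start and end, 101 had middles within 1 nt and 116 within 10 nt, with a median distance of 0 nt. Identical ends were rarer in protein coding exons away from tRNA and small RNA genes. There, 5 of 22 pairs had the same start and end, 12 had middles within 1 nt and 18 within 10 nt. The overlap was over 50% of the shorter peak in 132 pairs. Just inside the 1 nt rule lay the peaks of CCNI (cyclin I) with 10 nt of overlap, of PID1 with 13 nt, and of RPL10 over SNORA70 with 17 nt. Just outside it, the GNAI2 peaks (a G protein subunit) touched without overlap, with the normal glucose peak at chr3:50236233-50236333 and the galactose peak at chr3:50236334-50236434.

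The shared sites lay mainly on genes of structural RNA. Nuclear tRNA genes, 45S units and genes of small RNA or rRNA took 100 of the 139 shared galactose peaks (71.9%, interval 63.7 to 79.2%), against 51 of 198 peaks in galactose only (25.8%, interval 19.8 to 32.4%) and 127 of 355 in normal glucose only (35.8%, interval 30.8 to 41%). Exons of protein coding genes, outside such RNA genes, took 15.8% of shared galactose peaks, 48.5% of galactose only and 39.4% of normal glucose only peaks. Pseudogenes were the main class of 24 peaks in normal glucose only, 1 in galactose only and none of the shared peaks.

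**Figure D1:**
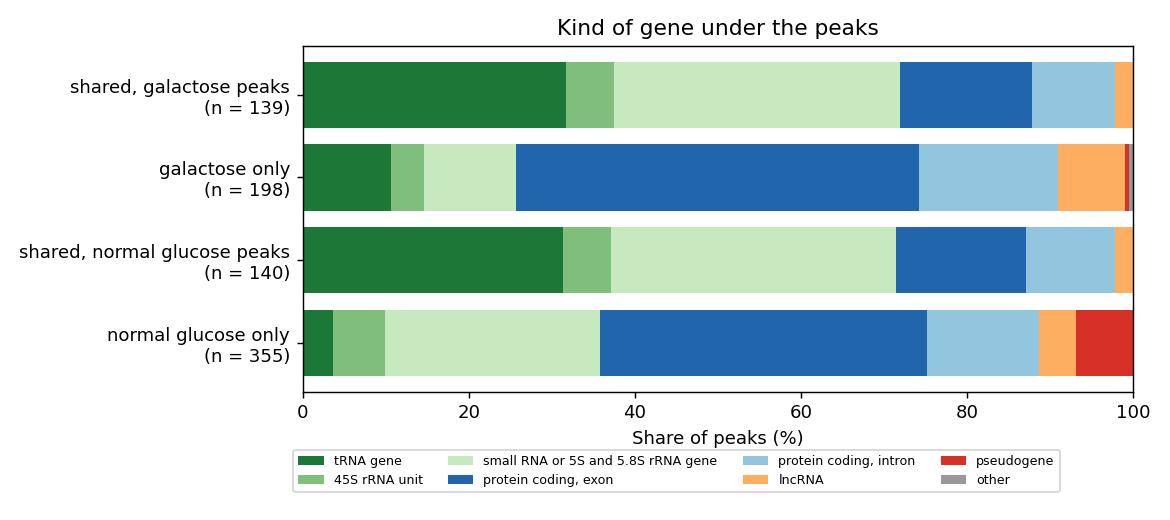
Share of peaks (%) on each kind of gene, in 1 bar per set, with shared peaks given once for either list. The tRNA segment holds 44 of 139 shared galactose peaks, 21 of 198 in galactose only and 13 of 355 in normal glucose only.

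Most snRNA and rRNA peaks of galactose were shared, and normal glucose held further genes of these kinds. For snRNA genes, 15 of 16 galactose peaks were shared (93.8%, interval 69.8 to 99.8%), against 15 of 32 normal glucose peaks (46.9%, interval 29.1 to 65.3%). The shared ones included RNU11 and RNU4ATAC of the minor spliceosome, RNU2-2P, and the U6 loci RNU6-1, RNU6-2 and RNU6-9. RNU12, RNU4-1, RNU4-2, RNU5A-1 and RNU5B-1 were in normal glucose only, and RNVU1-29, a variant U1 locus, was the single snRNA gene in galactose only. Of the 26 snRNA genes with a peak, 13 were in normal glucose only, which is near the share over all genes (48.9%). For rRNA genes and their pseudogenes, 11 of 13 galactose peaks were shared. Of 39 genes of this kind, 28, all 5S pseudogenes, were in normal glucose only, against 1 in galactose only (RNA5SP336). The shares over all genes were 48.9% in normal glucose only and 25.8% in galactose only. For 7SL and 7SK RNA, RN7SL1, RN7SL2, RN7SL3 and RN7SK were shared. Of the 7SK copies, RN7SKP9 was shared and 8 more, such as RN7SKP176 and RN7SKP255, were in normal glucose only, as were RMRP and RPPH1, the RNAs of RNase MRP and RNase P.

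snoRNA genes were spread over all sets. With the related scaRNAs, 44 genes had a peak, of which 10 had a shared site, 11 were in galactose only and 23 in normal glucose only. These numbers lie near the shares over all genes, 25.8% in galactose only and 48.9% in normal glucose only. By peaks, 10 of 25 galactose peaks were shared (40%, interval 21.1 to 61.3%). SNORD32A and SNORD33, which lie in introns of RPL13A, had shared sites, as had SNORA64, SNORA70 and SCARNA2. In galactose only were SNORA51, SNORA67, SNORA11B and SNORD13, and in normal glucose only SNORA73A, SNORA73B, SNORD3A (U3) and SNORD10. Among nuclear lncRNAs, MALAT1 had a shared site, and NEAT1 with 2 peaks and TERC, the RNA of telomerase, were in galactose only.

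Inside the 45S units, ENSG00000280441, a lncRNA gene annotated there, had the most peaks of any gene, 9 in galactose and 22 in normal glucose, with 7 shared in either list. SOX2-OT, whose 3 peaks in each list were all shared, carried the U6 locus RNU6-4P and a 5S pseudogene under them.

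Nuclear tRNA genes held 44 of the 139 shared galactose peaks. Of 443 nuclear tRNA genes in the annotation, 44 lay under peaks of both lists, 21 under galactose peaks only and 13 under normal glucose peaks only. The match was by position, with no strand. All 5 lysine tRNA genes with a galactose peak, all 4 for aspartate and all 4 for valine were also in normal glucose. For asparagine, 1 was in both lists and 3 were in galactose only, and for cysteine and isoleucine 2 each were in galactose only. Glycine tRNA genes were spread over both lists, with 5 shared, 4 in galactose only and 4 in normal glucose only. The 3 galactose peaks of CROCC, a ciliary rootlet gene and a leading gene of this set by peaks, were intronic and lay over tRNA genes for glycine, glutamate and asparagine. The shared peaks of KCTD2, 2 in each list, also lay over tRNA genes in an intron. The middle of the peak was inside the tRNA gene for 7 of the 21 peaks in galactose only. This was so for 36 of the 44 shared galactose peaks and 8 of the 13 in normal glucose only.

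**Figure D2:**
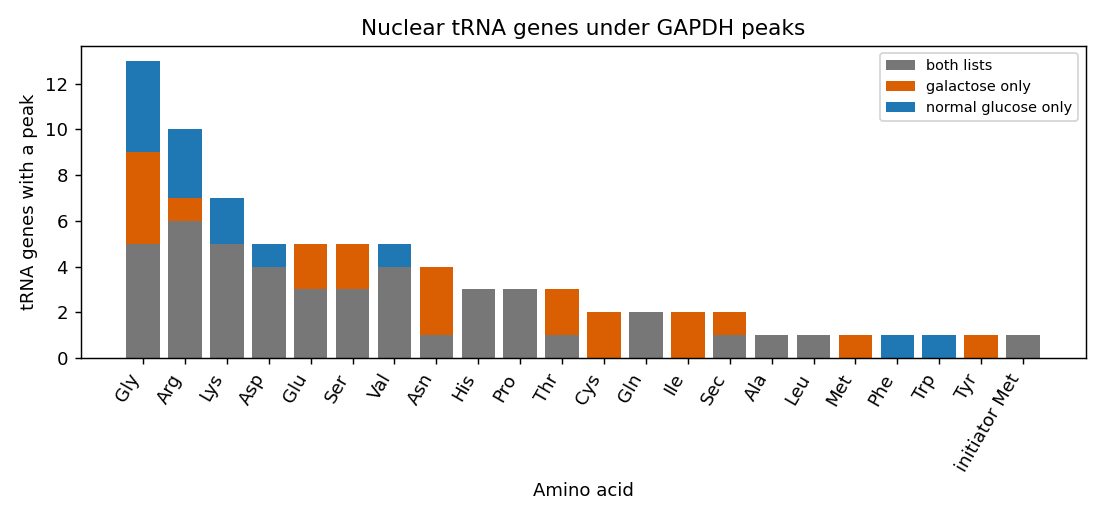
Number of nuclear tRNA genes with a peak, by amino acid, stacked for both lists, galactose only and normal glucose only. Glycine and arginine have the tallest bars, with 5 and 6 genes in both lists, and the bars of cysteine and isoleucine hold 2 genes each, all in galactose only.

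Wide peaks, which join several neighbouring sites, were mostly shared in the galactose list and not in the normal glucose list. Of 48 galactose peaks over 150 nt, 42 were shared (87.5%, interval 74.8 to 95.3%), against 45 of 99 in normal glucose (45.5%, interval 35.4 to 55.8%). Many of the shared wide peaks lay over tRNA genes. Peaks over 150 nt were 30.2% of shared galactose peaks and 15.2% of normal glucose only peaks, but without tRNA genes 14 of 95 (14.7%) and 48 of 342 (14%), against 5 of 177 in galactose only (2.82%). The widest galactose peak, with 242 nt, lay on RPL32 and SNORA7A, and the next, with 201 nt each, on RN7SL1 and on RNU2-2P. In normal glucose the widest were on RNU2-2P (266 nt, shared), on SNORD10 in EIF4A1 (245 nt) and on the 7SK copy RN7SKP79 (233 nt).

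Away from tRNA and small RNA genes, 22 shared regions lay in exons of protein coding genes. They included genes of ribosomal proteins, such as RPLP1, RPS18 (annotated together with VPS52) and RPS21 in the 5′UTR and RPLP2, RPL38 and RPS16 in the CDS. The 5′UTR sites were further in PABPC4 (a poly(A)-binding protein), ACTB and TMSB4X (actin and its partner thymosin beta-4), TAGLN2, PTMA, CCNI, ANKRD50, YWHAZ (a 14-3-3 protein), SARAF and PRTN3, the neutrophil protease proteinase 3. TKT, transketolase in the pentose phosphate pathway, had its galactose peak in the 5′UTR. The remaining shared CDS sites were in NFKBIA, MT2A, FEZF2 and CHD3 (annotated together with NAA38). The sequence of the PTMA site recurs in the genome. The site of ACTB, chr7:5530553-5530654 in galactose and 1 nt shorter in normal glucose, and those of TAGLN2, PABPC4, PRTN3 and CHD3 had their middle at or before the first base of the transcript.

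In protein coding exons, peaks found in galactose only, like shared ones, lay mostly near the 5′ end of the RNA. Those found in normal glucose only lay mostly in the CDS. The 5′UTR held 50 of 95 galactose only peaks (52.6%, interval 42.1 to 63%), 26 of 137 normal glucose only peaks (19%, interval 12.8 to 26.6%) and 15 of 25 shared galactose peaks (60%, interval 38.7 to 78.9%). The CDS held 43.2%, 72.3% and 32% in the same order. In the canonical transcript, the median distance of the middle from the 5′ end was 84.5 nt for galactose only (n = 94). It was 78 nt for shared galactose peaks (n = 26) and 313 nt for normal glucose only (n = 137). Here a middle before the first base was counted at that base. Exon 1 held 73.4% of galactose only peaks (interval 63.3 to 82%) and 65.4% of shared galactose peaks (interval 44.3 to 82.8%). It held 35.8% of normal glucose only peaks (interval 27.8 to 44.4%).

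**Figure D3:**
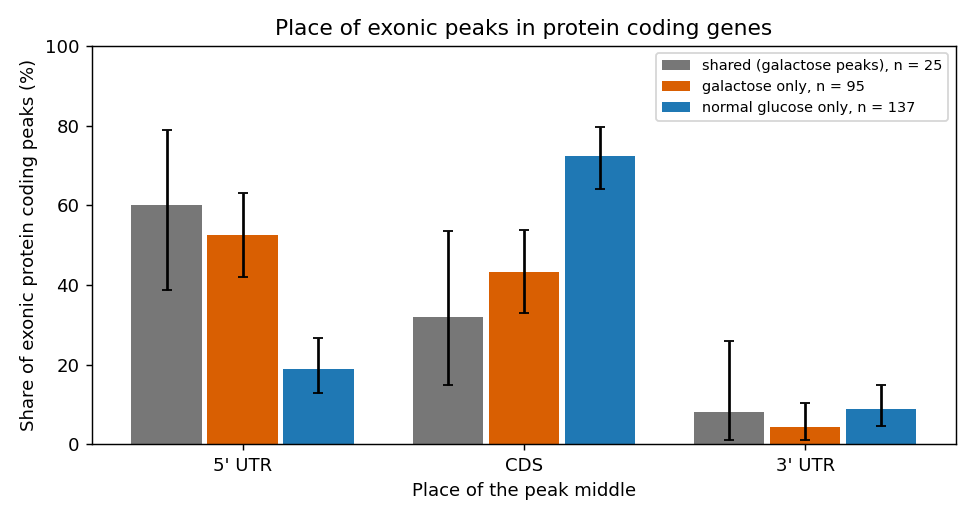
Share (%) of exonic protein coding peaks with their middle in the 5′UTR, CDS or 3′UTR, as bars per set, with exact 95% binomial intervals. The 5′UTR bar stands at 52.6% for galactose only and 19% for normal glucose only. The intervals cover counting error over peaks and not the spread between samples.

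The base before the middle also set the lists apart. Among single-site peaks, it was G in 141 of 202 normal glucose only peaks (69.8%, interval 63 to 76%) and in 23 of 121 galactose only peaks (19%, interval 12.4 to 27.1%). Shared peaks lay between, at 18 of 48 in galactose (37.5%) and 26 of 64 in normal glucose (40.6%). RNase T1, used on the crosslinked RNA, cuts after G, and its part in the difference was not tested. Among peaks found in normal glucose only, the place in the mRNA moved with this base. There, 8 of 80 exonic coding peaks with a G before the middle were in the 5′UTR (10%, interval 4.42 to 18.8%), against 12 of 25 with another base (48%, interval 27.8 to 68.7%). In galactose only, peaks with another base were in the 5′UTR in 30 of 53 cases (56.6%, interval 42.3 to 70.2%), and this interval overlaps that of normal glucose only peaks with another base. It also overlaps that of galactose only peaks with a G, at 4 of 12 (33.3%, interval 9.92 to 65.1%). Shared galactose peaks were few, with 2 of 3 with a G and 5 of 10 with another base in the 5′UTR. From the normal glucose side, 26 of 167 sites with a G were shared (15.6%, interval 10.4 to 22%), against 38 of 99 with another base (38.4%, interval 28.8 to 48.7%). From the galactose side the order was the opposite, with 18 of 41 sites with a G shared (43.9%, interval 28.5 to 60.3%) and 30 of 128 with another base (23.4%, interval 16.4 to 31.7%).

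**Figure D4:**
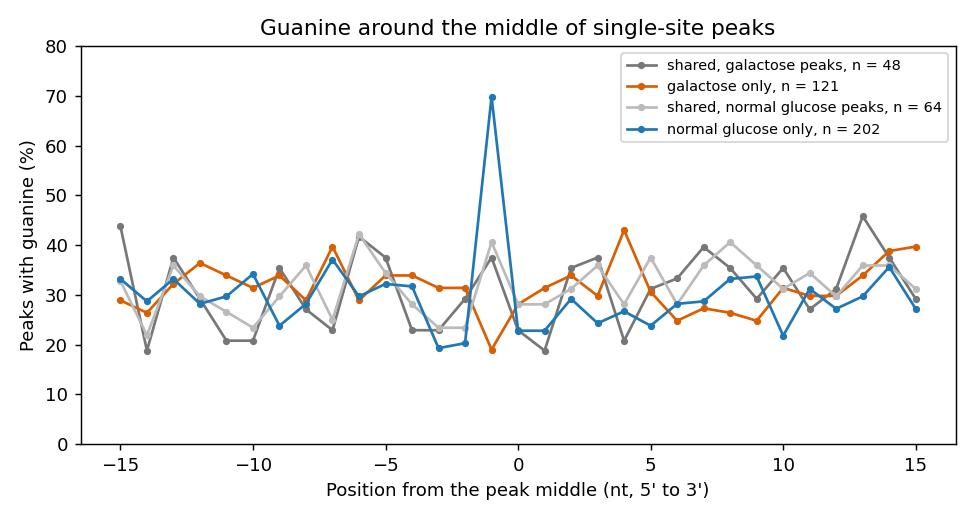
Share (%) of single-site peaks with guanine at each position from 15 nt before to 15 nt after the middle, with 1 line per set. The line for normal glucose only reaches 69.8% at the position before the middle, where galactose only stands at 19%.

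Base composition also differed between galactose only and normal glucose only peaks. Median GC content was 62.4% in galactose only (quartiles 52 to 70.3%), 54.5% in normal glucose only (quartiles 47.5 to 62.4%) and 53.9% in shared galactose peaks. Without small RNA, rRNA and tRNA genes the medians were 65.3%, 56.7% and 64.4% in the same order. Within the 5′UTR the medians were 70.4% in galactose only and 68.3% in normal glucose only, and within the CDS 63.1% and 58.4%.

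Of 21 glycolysis genes listed, 6 had a peak, and all 6 were in normal glucose only, with 11 peaks. Of all genes, 48.9% were in normal glucose only. The glycolysis genes were ALDOA (aldolase) with 3 peaks, GPI, PGK1 and PKM (pyruvate kinase) with 2 each, and LDHA (lactate dehydrogenase) and GAPDH itself with 1 each. The GAPDH peak lay in the 3′UTR in exon 9 (chr12:6538122-6538222) and the other 10 were in the CDS. The study names the 5′UTR of GAPDH as a target, but neither list compared here had a peak there. A G stood before the middle in all 6 single-site peaks of ALDOA, GPI, PGK1 and PKM, and not in the LDHA peak. The GAPDH and LDHA peaks were of sequence that recurs in the genome. No gene of galactose breakdown, of the nutrient stress list or of the mitochondrial genome had a peak in either list.

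Of 4 genes found from the respiratory chain list, 3 were in galactose only, against 25.8% of all genes. ATP5F1C and ATP5F1D, subunits of ATP synthase, and CYC1, cytochrome c1 of complex III, each had 1 peak in galactose and none in normal glucose, where the list held only the pseudogene ATP5MC2P1. The peaks of ATP5F1D and CYC1 lay in the 5′UTR, 33 and 24 nt from the 5′ end of the transcript, and that of ATP5F1C in an intron. GCSH, of the glycine cleavage system, had an intronic peak in galactose. With 1 peak per gene, these groups are too small to set against the other genes.

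Ribosomal protein genes were numerous in both lists, with 19 genes of the small subunit and 24 of the large subunit under a peak. Over all genes, 25.8% were in galactose only and 48.9% in normal glucose only. For the small subunit, 14 genes had a peak in each list, 6 with a shared site, 3 at different sites, 5 in galactose only and 5 in normal glucose only. RPS12 and the paralog RPS27L, with 2 peaks each, were in galactose only, as were RPS23 and RPS28. RPS14 with 3 peaks and RPS15 with 2 led those in normal glucose only. For the large subunit, 13 genes had a peak in galactose and 20 in normal glucose, with 6 at a shared site, 4 in galactose only, such as RPL23A, RPL35 and RPL37A, and 11 in normal glucose only, such as RPL13, RPL24, RPL27 and RPLP0 with 2 peaks each. The shared sites of RPL10, RPL13A, RPL32, RPS2 and RPS29 lay over small RNA genes. Over both subunits, 9 of 24 peaks in galactose only and 4 of 43 in normal glucose only were in the 5′UTR. These totals include introns and exons of non-coding transcripts. Over the exonic peaks of all protein coding genes, the 5′UTR shares were 52.6% and 19%. Of the single-site peaks of ribosomal protein genes, 2 of 20 in galactose only and 27 of 35 in normal glucose only had a G before the middle. RPL13A, a protein of the large subunit, had 2 peaks in galactose, both shared and over SNORD32A and SNORD33, and 5 in normal glucose. A CDS peak in exon 3 of RPL13A was found in normal glucose only (chr19:49490247-49490347).

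Among translation factors, PABPC4 had a shared site. The shared site of the helicase gene EIF4A1 lay over SNORA48, a snoRNA gene within it, and its other peaks lay over SNORA67 and SNORD10. PABPC1 (the main poly(A)-binding protein) with 6 peaks, the most of any gene with a symbol in normal glucose only, and EEF2 with 4 were in normal glucose only, and EIF4EBP2 and EIF4G1 in galactose only. Other leading genes in normal glucose only were YBX1, a cold shock RNA binder, with 4 peaks and FTL (ferritin light chain), the chaperone HSPA8 and TMSB10 with 3 each. The 4 peaks of YBX1 all had a G before the middle and recurrent sequence. In galactose only, the chaperones HSPD1, of the mitochondrial matrix, with 2 peaks, and CALR, of the endoplasmic reticulum, were found with NOP56, a snoRNP protein, with 2. DGLUCY, of D-glutamate metabolism, had 2 intronic peaks there. Of the 2 HSPD1 peaks, 1 had its middle at or before the first base of the transcript.

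None of the 19 histone genes with a peak was in both lists, while of all genes 25.8% were in galactose only and 48.9% in normal glucose only. Of the histone genes, 4 were in galactose only (H1-2, H3-3A, H3C4 and H4C2) and 15 in normal glucose only, such as H1-4 and H2BC15 with 2 peaks each. Of the single-site histone peaks, 1 of 4 in galactose only and 12 of 14 in normal glucose only had a G before the middle. Of the 35 genes of the myeloid list, only NFKBIA and PRTN3 had a peak, both shared. None of the 20 genes of the list of other cell types had one. Of all 718 genes, 158 had a shared site. The lists hold no expression, so these counts name no cell type. Of metallothioneins, MT2A was shared and MT1F and MT1H were in normal glucose only. Among the mRNAs of the list with AU-rich elements or known GAPDH binding, ZFP36L2 was in galactose and its relative ZFP36L1 in normal glucose, each in the 5′UTR. TNF and MYC had no peak in either list, although the study names both among the targets found by its CLIP, which also covered low glucose.

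Processed pseudogenes, intronless copies of mRNAs, were annotated under 41 normal glucose only peaks and 1 galactose only peak (GPX1P1), and under no shared peak. All 19 of the 41 whose middle could be read had a G before it, and 11 had recurrent sequence. Among these copies were GAPDHP21, GAPDHP61, GAPDHP63 and GAPDHP65, ALDOAP2 and PKMP1, copies of genes of glycolysis. Reads of processed pseudogenes and of their parent genes can be hard to tell apart, and their part in the counts was not tested. Recurrent sequence was found in 93 of 355 normal glucose only peaks (26.2%), 28 of 198 galactose only peaks (14.1%) and 33 of 139 shared galactose peaks (23.7%).

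The 24 genes in both lists at different sites ranged from touching peaks to distant introns. The closest with a symbol were GNAI2, RPL12 (69 nt between peaks), SNHG25 (84 nt), DLG2 (137 nt) and PCBP2 (159 nt). The most distant were SIL1 (214095 nt), ZNF609 (89336 nt), ANKMY1 (50720 nt), HNRNPU (8824 nt) and RPL5 (8579 nt). In RPS19 the galactose peak lay in the 5′UTR and the normal glucose peaks in the CDS, and in RPS20 the order was the reverse.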

How the data were processed

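GAPDH CLIP-seq was deposited for MOLM-13 cells as 1 peak list per condition. According to the processing notes of the submitters, cutadapt and STAR were used (versions not given), with hg38 (GRCh38) as the genome build. Per the study's methods, crosslink sites were found with PureCLIP, sites close together were merged, and lone sites were lengthened to a fixed size. How the 2 samples of a condition were joined is not given in the sources used here. The labels describe total RNA depleted of rRNA, which the methods give for RNA-seq, and do not describe the GAPDH precipitation. The lists were taken as CLIP peaks from the series title and the methods. The values used were positions, which the authors deposited with gene identifiers and symbols. The low glucose list was used only to count the peaks of the series and for one closing observation.

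Starts were read as 1-based, since the G before the middle in normal glucose was at the same place on the plus strand (56.8%) and the minus strand (69.3%). Transcripts and strand came from GENCODE 44, the positions of nuclear tRNA genes from RefSeq (GRCh38.p14) and the sequence from hg38. Of the pairs of a peak and a gene, 445 of 449 in galactose and 701 of 704 in normal glucose were in GENCODE. The peak middle was placed over all transcripts, with the CDS taking precedence, then the 5′UTR, the 3′UTR and the intron. A middle outside the gene was first moved to the nearest end of the gene, and for canonical distances to that of the transcript. Peaks with a middle before the RNA could thus count as 5′UTR and exon 1. Sequence was recurrent where over 50% of the 30-mers of a peak occur more than once in the genome. The base before the middle was read where all genes of a peak of 101 nt lie on 1 strand. Each peak got 1 class, with rRNA and small RNA genes first. Shares carry exact Clopper-Pearson intervals (scipy 1.17.1, Python 3.11.15). Sequence was read with samtools 1.23.1 and pysam 0.24.0. The overlap code was tested on simulated lists.

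The members, gene lists and naming rule were chosen with earlier results of these data known. Named were the study's targets and controls, protein coding genes with an exonic shared site, the genes with the most peaks in each set, leading members of each gene list, the 3 widest peaks of each list, pairs next to the overlap rule, and genes in both lists at different sites with the smallest and largest distance. A few more, such as NOP56 and RPS19, were chosen after their values were seen. Alternatives were other overlap rules, class and transcript orders, and lists that leave out tRNA genes, small RNA genes, recurrent sequence, sites next to a G, or peaks of more than 1 gene. Some genes that the naming rule picked are not reported here.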

Additional observations from a re-analysis of the deposited data

How the results depend on the processing

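Of 72 alternative values over 19 results, 51 stayed inside the interval of the reported value and 21 moved beyond it, so the size of the sets depends on these choices. With identical start and end as the rule, the shared share was 24.9% of galactose peaks and 17% of normal glucose peaks. Without peaks over tRNA genes it was 34.9% and 21.9%, without small RNA and rRNA genes 33.6% in galactose, and without peaks with a G before the middle 34.5% in normal glucose. Without peaks of more than 1 gene, 39% of normal glucose genes were in both lists. With protein coding genes first, the protein coding share was 51.8% of shared, 77.8% of galactose only and 68.5% of normal glucose only peaks, and it was 47.7% in normal glucose only without peaks with a G before the middle. With the middle inside the tRNA gene, the tRNA share in galactose only was 3.54%. The 5′UTR share of normal glucose only rose to 31.6% without peaks with a G before the middle and to 48% over single-site peaks with another base, both chosen after seeing the data. Counting any width over that of a single-site peak as wide, the shares were 60.4% of shared, 29.8% of galactose only and 30.4% of normal glucose only peaks, and without tRNA genes 14.7% of shared peaks were over 150 nt, also chosen later. Median GC without small RNA, rRNA and tRNA genes was 64.4% in shared, 65.3% in galactose only and 56.7% in normal glucose only peaks. No paired analysis was possible because each condition has 1 joined list, and no sample could be left out for the same reason. Depth is unknown, so a site missing from a list cannot be told apart from one sequenced too thinly.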

Other observations

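The low glucose list, which did not enter the sets above, overlapped 87 of 198 galactose only peaks (43.9%, exact interval 36.9 to 51.2%) and 31 of 355 normal glucose only peaks (8.73%, interval 6.01 to 12.2%). Among galactose only peaks over tRNA genes it met 15 of 21, and among those in the 5′UTR of protein coding genes 16 of 50. Of normal glucose only peaks with a G before the middle it met 4 of 141 (2.84%, interval 0.778 to 7.1%), and of those with another base 8 of 61 (13.1%, interval 5.84 to 24.2%). The G stood before the middle in 53 of 203 single-site low glucose peaks (26.1%), 41 of 169 in galactose (24.3%) and 167 of 266 in normal glucose (62.8%). None of the 41 normal glucose only peaks with a processed pseudogene was met by low glucose. The 3 lists stem from separate samples, and the cause of these differences was not tested.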
